A study of Mus musculus with 6 samples.

Results

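The enzymes that turn squalene into cholesterol were examined in epididymal white fat. They were represented by 9 genes, Sqle, Lss, Cyp51, Tm7sf2, Msmo1, Nsdhl, Hsd17b7, Ebp and Dhcr7, taken as the enzymes of the pathway after squalene. A probe set was taken where the platform annotation paired it with exactly 1 gene symbol and that symbol was 1 of the 9, which gave 17 of 45101 probe sets. The transgenic group held 3 male mice aged 10 weeks on a C57BL6;SJL background that carried aP2-nSrebp1c, a transgene that drives the nuclear form of SREBP-1c from the aP2 (Fabp4) promoter. The wild type group held 3 males of the same age and background, called litter-matched in the series description. The aP2 promoter is active in fat cells and is known to be active in macrophages as well, so the transgene need not be confined to fat cells. The labels describe the transgenic mice as lipodystrophic, and they spell the transgene in 3 ways on the 3 transgenic samples (aP2-nSrebp1c, aP2-nSrebp1 and aP2-SREBP1c). Every fat pad RNA went onto a separate Affymetrix MOE430v2.0 array, and the values are MAS5 signals on a linear scale.

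Cholesterol is made in the endoplasmic reticulum. Squalene is oxidised, closed into the ring system of lanosterol, and then trimmed of methyl groups, reduced and isomerised until cholesterol remains. Genes of the pathway are classic targets of the SREBP transcription factors, which are released from the membrane when sterol is scarce, and the nuclear form of SREBP-1c expressed here is past that control. White fat holds much free cholesterol but is known for making little of it compared with liver.

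In the transgenic fat 8 of the 9 genes rose, by 5.59-fold for Nsdhl to 16.2-fold for Cyp51 when each gene was read from its brightest tested probe set, and none (0) fell. Ebp, the remaining gene, was higher in all 3 transgenic mice than in any wild type mouse, but did not pass the test. The brightest probe set was chosen over all 6 arrays, so the transgenic signals had a part in the choice. For Hsd17b7 it was 1457248_x_at, while 1448865_at was brighter in wild type fat (mean 206 against 129) and did not pass the test. A probe set was called when its adjusted p was under 0.05 in limma's moderated test on log2(signal + 16), fitted over 27023 probe sets and adjusted over all of them by the Benjamini-Hochberg method. Every fold change and log2 fold change below is transgenic over wild type on that scale, and every adjusted p is from that limma test. Of the 17 probe sets 15 passed the filter on low signals, and 11 of these 15 rose, where 1.67% of all tested probe sets rose. That filter used the mean over all 6 arrays. The Cyp51 probe set 1422534_at (wild type mean 13.3), counted among the 11, passed it only through its transgenic signals. In 13 of the 15 the lowest transgenic signal lay above the highest wild type signal, a pattern that 11.9% of all tested probe sets showed. The median log2 fold change of the 15 was 3.14, against −0.09 over all tested probe sets. Ranked by log2 fold change among 13112 tested genes, the 9 genes stood between place 21 (Cyp51) and place 97 (Nsdhl). In bulk tissue, more RNA per cell and more cells of a kind that carries the RNA cannot be told apart.

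The array of transgenic replicate 2 stood apart from the other 5, and values are given with and without it. Its 3′ over 5′ signal ratio was 122 for the beta-actin control and 55.9 for Gapdh, against 1.12 to 1.81 and 0.772 to 1.22 on the others, which is the usual sign of shortened RNA. The same ratio for pyruvate carboxylase was 14.1, within the 3.06 to 52.0 of the others. Its median signal was 37.7, against 53.4 to 65.4. Of the 15 tested probe sets, replicate 2 was the lowest transgenic array in 8, the highest in 5 and between the others in 2. Without it 14 of 15 probe sets and all 9 genes rose, where 6.96% of all tested probe sets did. The part of RNA quality in the values below was not tested.

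**Figure D1:**
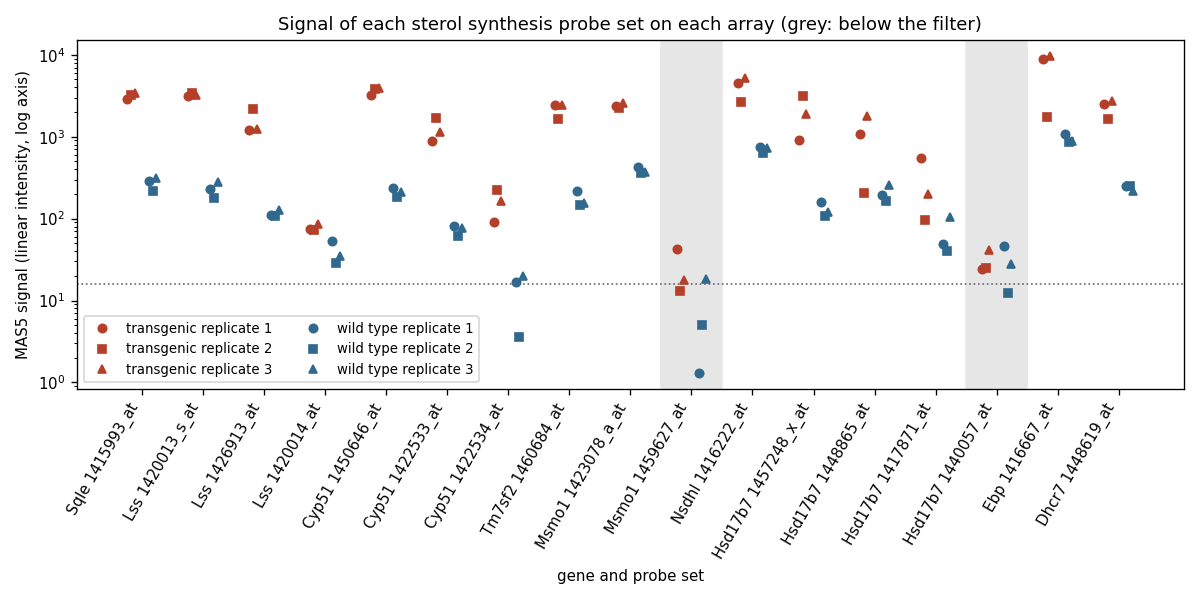
MAS5 signal (log axis) of each of the 17 probe sets on each array, transgenic arrays in red at the left of each pair of groups and wild type arrays in blue; symbols mark the replicate, the dotted line is the 16 added before the logarithm, and grey marks the 2 probe sets below the filter. Sqle, the brighter probe sets of Lss and Cyp51, Tm7sf2, Msmo1 and Dhcr7 show 2 well separated groups, while Ebp and 2 probe sets of Hsd17b7 have 1 transgenic array, replicate 2, close to the wild type range.

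Squalene is first oxidised by squalene epoxidase, the product of Sqle and a controlling step of the pathway. Its only probe set, 1415993_at, had signals of 2869, 3203 and 3440 in transgenic replicates 1, 2 and 3, against 291, 218.5 and 314 in wild type replicates 1, 2 and 3. The groups lay far apart, and the 3 transgenic mice stood 10.0, 11.2 and 12 times above the wild type mean. Sqle rose 11.1-fold (3.47 ± 0.24 SE in log2, adjusted p = 0.00158), and the log2 fold change was 3.46 without transgenic replicate 2.

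Lanosterol synthase, the product of Lss, folds the oxidised squalene into the first sterol of the pathway. Its brightest probe set, 1420013_s_at, read 3116, 3388 and 3278.5 in transgenic fat, against 232, 179 and 277 in wild type fat. The transgenic mice differed among themselves by less than the wild type mice did in relative terms. This probe set rose 13.6-fold (3.76 ± 0.24 SE, adjusted p = 0.00142). A second one, 1426913_at, read 1203, 2202 and 1230 in transgenic fat, against 109, 106 and 129 in wild type fat, and rose 11.5-fold (3.52 ± 0.31 SE, adjusted p = 0.00327). Here transgenic replicate 2 was the highest array. The dimmest, 1420014_at, had 74.4, 73.3 and 85.8 in transgenic fat, against 53.3, 28.9 and 35.1 in wild type fat. Its groups did not overlap either, but its log2 fold change of 0.79 ± 0.24 SE did not pass the test (adjusted p = 0.166), nor did it without transgenic replicate 2 (0.82, adjusted p = 0.0848). The 3 probe sets of Lss therefore shared a direction and differed in size, and the rise of Lss rests on the brighter pair.

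Cyp51 encodes the cytochrome P450 that removes a methyl group from lanosterol. Its brightest probe set, 1450646_at, gave 3219, 3832.5 and 3985 in transgenic fat, against 237.5, 184 and 212 in wild type fat. With means of 3679 ± 405 in transgenic and 211 ± 26.6 in wild type fat (SD, n = 3 each), it rose 16.2-fold (4.02 ± 0.22 SE, adjusted p = 0.000982). No other gene of the 9 had a larger fold change from its brightest probe set. The probe set 1422533_at gave 879, 1674 and 1132 in transgenic fat, against 81.9, 61.5 and 77.0 in wild type fat, and rose 13.5-fold (3.76 ± 0.30 SE, adjusted p = 0.00298). The dim probe set 1422534_at gave 90.2, 225 and 165 in transgenic fat, against 16.7, 3.6 and 19.7 in wild type fat, at or near the 16 added before the logarithm. It rose by 2.56 ± 0.38 on the log2 scale (adjusted p = 0.0213, and 0.0833 to 0.111 without transgenic replicate 3 or any 1 of the wild type arrays). That size depends on the 16 added, and was 3.66 with 1 added and 1.495 with 64 added. All 3 probe sets of Cyp51 thus rose, but the dimmest had passed the filter only through its transgenic signals. In the dimmer pair transgenic replicate 2 was the highest array.

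Tm7sf2 encodes a sterol reductase of the endoplasmic reticulum that acts on the product of Cyp51. Its probe set, 1460684_at, read 2469.5, 1656 and 2407.5 in transgenic fat, against 219, 148.5 and 154 in wild type fat. The lowest transgenic array, replicate 2, was still 8.93 times the wild type mean. Tm7sf2 rose 11.5-fold (3.53 ± 0.28 SE, adjusted p = 0.00278). Lbr, the lamin B receptor gene, encodes a protein with the same reductase activity. It had 800.4, 1538 and 1176 in transgenic fat, against 845, 783 and 694.5 in wild type fat. Its groups overlapped, and it passed neither with all arrays (0.54 ± 0.29 SE in log2, adjusted p = 0.415) nor when transgenic replicate 2 was left out (0.32, adjusted p = 0.372).

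The next enzymes work together to strip the remaining methyl groups, with Msmo1 encoding the oxidase, Nsdhl the decarboxylating dehydrogenase and Hsd17b7 the reductase that closes the cycle. The probe set 1423078_a_at of Msmo1 read 2345, 2247 and 2546.5 in transgenic fat, against 429.6, 362 and 376 in wild type fat. Msmo1 rose 5.92-fold (2.57 ± 0.21 SE, adjusted p = 0.00298), a smaller change than that of the genes before it but among the most even across mice, at 5.84, 5.60 and 6.34 times the wild type mean. Its other probe set, 1459627_at, did not pass the filter, with 42.4, 13.0 and 18 in transgenic fat, against 1.3, 5.0 and 18.1 in wild type fat, close to background and overlapping.

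The Nsdhl probe set, 1416222_at, read 4511, 2655 and 5257 in transgenic fat, against 749.9, 627.5 and 726 in wild type fat. Transgenic replicate 2 was the lowest transgenic array and 3.73 times the wild type mean. Nsdhl rose 5.59-fold (2.48 ± 0.29 SE, adjusted p = 0.00837). Its adjusted p was 0.0593 to 0.0711 when any of the 3 wild type arrays was left out, and its fold change was 6.83 without transgenic replicate 2.

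The probe sets of Hsd17b7 disagreed on transgenic replicate 2. The brightest, 1457248_x_at, read 912, 3151 and 1873 in transgenic fat, against 159, 108 and 120.5 in wild type fat, and rose 12.3-fold (3.63 ± 0.46 SE, adjusted p = 0.011, and 0.0588 to 0.0844 without transgenic replicate 3 or any 1 of the wild type arrays). By the platform's naming, the suffix x marks a probe set with probes that can match other transcripts. The probe set 1448865_at read 1091, 203 and 1814 in transgenic fat, against 192, 166 and 259 in wild type fat, and 1417871_at read 556, 97.6 and 203 in transgenic fat, against 49.1, 39.9 and 104.5 in wild type fat. On these probe sets transgenic replicate 2 lay within the wild type range, whereas on the brightest probe set it was the highest array of all. Neither passed the test: 1448865_at had 1.80 ± 0.75 SE in log2 (adjusted p = 0.299) and 1417871_at had 1.67 ± 0.61 SE (adjusted p = 0.242). When transgenic replicate 2 was left out all 3 rose, by 3.21 (adjusted p = 0.000163), 2.70 (adjusted p = 0.000204) and 2.22 (adjusted p = 0.00906) on the log2 scale. The fourth, 1440057_at, did not pass the filter, with 24.6, 24.7 and 41.3 in transgenic fat, against 45.8, 12.4 and 28.1 in wild type fat.

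Ebp encodes the sterol isomerase that shifts a double bond in the ring. Its probe set, 1416667_at, had 8999, 1763 and 9666 in transgenic fat, against 1074, 855 and 882 in wild type fat. Transgenic replicates 1 and 3 stood 9.51 and 10.2 times above the wild type mean and replicate 2 stood 1.88 times above it. With all 6 arrays the log2 fold change was 2.50 ± 0.64 SE (95% interval 0.996 to 4.01), which did not pass the test (adjusted p = 0.106). Without transgenic replicate 2 Ebp rose 9.86-fold (3.30 ± 0.16 SE, adjusted p = 4.48e-06).

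Dhcr7 encodes the reductase that makes cholesterol from dehydrocholesterol. Its probe set, 1448619_at, read 2480.2, 1634.5 and 2754 in transgenic fat, against 250.5, 248.9 and 220.0 in wild type fat. Dhcr7 rose 8.82-fold (3.14 ± 0.27 SE, adjusted p = 0.00327), and 10.3-fold without transgenic replicate 2. Every transgenic array was at least 6.46 times the wild type mean.

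The 8 tested probe sets that stayed past the threshold whichever array was left out were those of Sqle, Tm7sf2, Msmo1 and Dhcr7 and the brighter pairs of Lss and Cyp51. The share of all tested probe sets that stayed past it in this way was not determined. Among the brightest probe sets, 8 of the 9 genes were at least 3-fold above the wild type mean in each of the 3 transgenic mice, Ebp being the exception. For Hsd17b7 this rests on 1457248_x_at alone. On 1448865_at and 1417871_at transgenic replicate 2 was below 3-fold and within the wild type range. The share of all tested genes that met this 3-fold rule was not determined. With all 6 arrays Cyp51 had the largest change and Nsdhl the smallest, with 95% intervals of the log2 fold change of 3.49 to 4.55 and 1.79 to 3.18 that do not overlap. Without transgenic replicate 2 the smallest was Msmo1, at 2.61 against 2.77 for Nsdhl, and without transgenic replicate 1 or 3 or wild type replicate 3 it was Ebp. The intervals of Lss (3.19 to 4.33), Hsd17b7 (2.54 to 4.71), Tm7sf2 (2.86 to 4.19), Sqle (2.91 to 4.02) and Dhcr7 (2.50 to 3.78) all overlapped one another, so the order among these genes is within their error. The difference between genes was not tested, and probe sets of different genes can differ in how they register the same change.

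**Figure D2:**
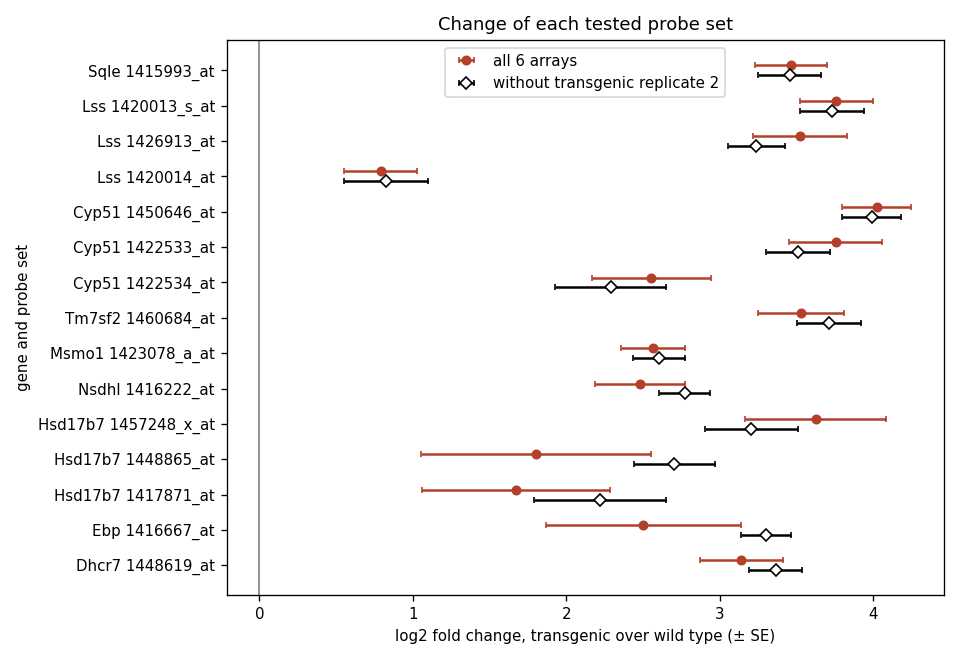
Log2 fold change (transgenic over wild type, ± SE) of the 15 tested probe sets with all 6 arrays (red circles) and without transgenic replicate 2 (open diamonds). Leaving out that array moved Ebp to 3.30, against 2.50 with all arrays, and the probe set 1448865_at of Hsd17b7 to 2.70, against 1.80, while Sqle stayed at 3.46 against 3.47.

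Transgenic replicate 2 did not shift the probe sets in 1 direction. Relative to the mean log2 value of transgenic replicates 1 and 3, it was lower by 2.70 for the Hsd17b7 probe set 1448865_at, by 2.39 for Ebp and by 1.64 for the Hsd17b7 probe set 1417871_at. It was higher by 1.26 for the brightest Hsd17b7 probe set, by 0.85 for the Lss probe set 1426913_at and by 0.80 for the Cyp51 probe set 1422534_at. Over all tested probe sets the median of this difference was −0.30 and its 10th and 90th percentiles were −2.13 and 0.74. Of the 15 tested probe sets 2 lay below that range and 3 above it.

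Other genes of the pathway were read in the same way, from lists chosen with earlier results of these data known. Beside the 9 genes, 10 further genes of the late pathway and of its electron supply were listed, of which 7 were analysed here. Of these 7 genes 2 rose, none (0) fell and the other 5 did not pass, where 2.23% of all genes rose and 1.54% fell. Sc5d, the sterol desaturase that acts between the steps of Ebp and Dhcr7, had 5482, 3942 and 5075 in transgenic fat, against 1299, 1226 and 1589.6 in wild type fat. It rose 3.48-fold (1.80 ± 0.21 SE, adjusted p = 0.00814). The call of Sc5d was lost without wild type replicate 1 or 2 (adjusted p up to 0.0726). Cyb5b, which encodes a cytochrome b5 of the outer mitochondrial membrane, rose 2.39-fold (1.25 ± 0.18 SE, adjusted p = 0.0179, and up to 0.125 without transgenic replicate 3 or any 1 of the wild type arrays). The probe set with the highest signal for each of these genes was the one that rose, and their 2 further tested probe sets each did not pass the test. Cyb5a, the cytochrome b5 of the endoplasmic reticulum, had a log2 fold change of −0.32 (adjusted p = 0.459), and Cyb5r3, its reductase, 0.52 (adjusted p = 0.373). Pgrmc1, a membrane partner of cytochromes P450, had 0.91 (adjusted p = 0.0719), and Erg28, a scaffold protein of the enzymes known from yeast, 1.21 (adjusted p = 0.407). Without transgenic replicate 2, 5 of the 7 rose and 1 fell, where 8.04% of all genes rose and 7.33% fell.

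Of 10 listed genes of the pathway up to squalene 8 were analysed, counting Ggps1, which belongs to a side branch that does not lead to squalene. Of these 8 genes 3 rose, none (0) fell and the other 5 did not pass, where 2.23% of all genes rose. Their median log2 fold change was 0.90, against 3.47 for the 9 genes after squalene and −0.04 for all tested genes; without transgenic replicate 2 these were 1.37, 3.36 and 0.02, and 5 of the 8 rose, where 8.04% of all genes did. Mvd, which makes isopentenyl diphosphate, rose by 4.51 ± 0.40 on the log2 scale (adjusted p = 0.00348), Idi1, its isomerase, by 3.53 ± 0.19 (adjusted p = 0.000924) and Hmgcs1, the synthase at the head of the pathway, by 1.44 ± 0.27 (adjusted p = 0.0436). These are each gene's brightest probe set. The 1 other tested probe set of Mvd did not pass, that of Idi1 rose, and of the 3 others of Hmgcs1 only 1 rose. The call of Hmgcs1 was lost when any array but transgenic replicate 2 was left out (adjusted p up to 0.203). Fdps, the farnesyl diphosphate synthase gene, had 6807, 21.3 and 7936 in transgenic fat, against 736.5, 665 and 774.6 in wild type fat. The array of transgenic replicate 2 thus lay far below every other array, and Fdps did not pass the test (0.77 ± 1.95 SE in log2, adjusted p = 0.862). When that array was left out Fdps rose by 3.32 (adjusted p = 4.41e-06). Fdft1, which makes squalene, had 663, 127.5 and 1043 in transgenic fat, against 765, 692 and 694.5 in wild type fat. It did not pass the test (−0.64 ± 0.70 SE in log2, adjusted p = 0.672). Leaving out transgenic replicate 2 gave 0.21 (adjusted p = 0.597). Mvk and Pmvk, the kinases of mevalonate and its phosphate, had −0.11 (adjusted p = 0.932) and 1.02 (adjusted p = 0.325), and Ggps1, of the geranylgeranyl branch, had −0.97 (adjusted p = 0.271). Of the genes on either side of squalene, Fdft1 passed the test in neither fit and Sqle in both; the difference between them was not tested.

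**Figure D3:**
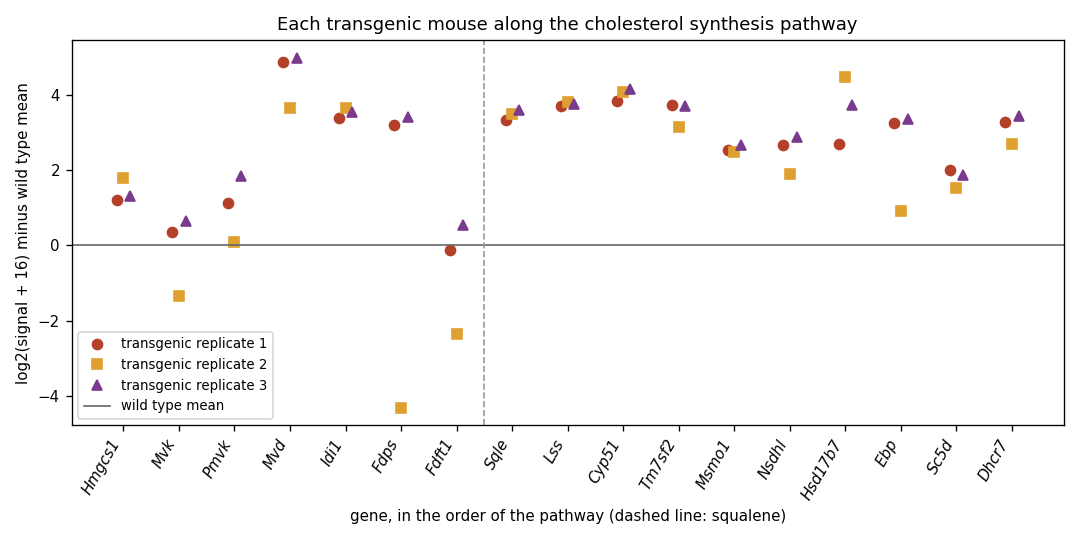
Log2(signal + 16) of each transgenic mouse minus the wild type mean (line at 0) for the brightest tested probe set of each gene, in pathway order from Hmgcs1 to Dhcr7, with squalene at the dashed line. After squalene every point lies above 0, the lowest being Ebp in transgenic replicate 2 at 0.91; before squalene transgenic replicate 2 falls below 0 for Mvk, Fdps and Fdft1, and replicate 1 for Fdft1 as well.

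Among regulators of the pathway, Srebf1, which encodes SREBP-1, read 3471, 4753 and 4338 in transgenic fat, against 1802, 2040 and 2036 in wild type fat, and rose 2.11-fold (1.08 ± 0.19 SE, adjusted p = 0.0342, and up to 0.188 without transgenic replicate 3 or any 1 of the wild type arrays). The sources used here do not say if its probes also match transgene RNA. Srebf2, which encodes the family member most tied to sterol synthesis, had 419, 42.7 and 467 in transgenic fat, against 502, 417 and 417 in wild type fat, and did not pass the test (−0.99 ± 0.79 SE in log2, adjusted p = 0.565). Leaving out transgenic replicate 2 gave −0.00 (adjusted p = 0.993). Insig1, whose product retains the SREBPs in the membrane and is itself a target of them, rose 4.89-fold (2.29 ± 0.22 SE, adjusted p = 0.00425). Of 8 analysed genes of sterol regulation and uptake 3 (Srebf1, Insig1 and Stard4) rose, none (0) fell and the other 5 did not pass, and of 7 of sterol storage and efflux 1 (Nceh1) rose and 6 did not pass it. Over all genes 2.23% rose. Without transgenic replicate 2, 4 and 3 genes of these lists rose and 0 fell, where 8.04% of all genes rose. The medians of these lists were 0.35 and 0.54.

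Marker lists of fat cells and of other cell types were read from the same arrays, and their part in the rise of the sterol genes was not tested. Over all tested genes 2.23% rose and 1.54% fell with all arrays, and 8.04% rose and 7.33% fell without transgenic replicate 2. Of 8 adipocyte markers 2, Adipoq and Lep, fell and 0 rose (5 fell and 0 rose without transgenic replicate 2), and their summed signal was 42010 to 50390 in transgenic and 66170 to 73100 in wild type fat, none of the 8 being below 16 on all arrays. Of 9 macrophage markers 0 passed the limma test with all arrays (5 rose and 1 fell without transgenic replicate 2), and their sum was 21010 to 28990 in transgenic and 13810 to 16350 in wild type fat. Of 6 mesothelial markers 2, Msln and Krt19, fell (5 without transgenic replicate 2). The summed signal of the 6 was 670.3 to 1968 in transgenic and 4813 to 5516 in wild type fat. Of 10 testis and epididymis markers 4 were tested and only Star rose, and Tnp2, Hsd3b1, Lcn5 and Adam7 were below 16 on all 6 arrays. Star, whose product carries cholesterol into mitochondria, rose 6.44-fold (2.69 ± 0.26 SE, adjusted p = 0.00416) and gave most of that list's sum in transgenic fat; the sum was 1218 to 1707 in transgenic and 266.7 to 371 in wild type fat. Of 5 brown fat markers 4 were tested and 2 rose, Cox8b and Elovl3 (3 without transgenic replicate 2). Ucp1, the defining gene, was below 16 on all arrays. The list's sum was 4225 to 5618 in transgenic and 563 to 900.2 in wild type fat, and Cox8b gave most of it in both groups. Of 5 lymph node markers 3 were tested and 0 passed (1 rose without transgenic replicate 2), with a sum of 280.2 to 445 in transgenic and 165 to 224 in wild type fat. The calls of Adipoq, Msln, Krt19, Elovl3, Stard4 and Nceh1 were each lost without at least 2 of the arrays taken singly, at adjusted p up to 0.221. The summed signal of the 9 sterol genes, for comparison, was 23530 to 35210 in transgenic and 2931 to 3642 in wild type fat.

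Promoters were set beside these values because the genes moved together and because SREBPs act on such genes with the partner factors NF-Y and Sp1, which bind CCAAT and GC boxes. RefSeq windows of 300 bases on build GRCm38.p6 (250 before to 50 after the annotated start) were given for 8 of the 9 genes, in 10 windows, of which 3 belong to Dhcr7. Shown are those of Cyp51, with the largest change, and of Lss, whose brightest probe set changed evenly over the transgenic arrays. Also shown are those of Msmo1, with the smaller but steady change, and of Hsd17b7, with the disagreeing probe sets. All are written 5′ to 3′ on the strand of the gene, with capitals marking CCAAT or its reverse complement ATTGG.
Cyp51 promoter, chr5:4104648-4104947, minus strand: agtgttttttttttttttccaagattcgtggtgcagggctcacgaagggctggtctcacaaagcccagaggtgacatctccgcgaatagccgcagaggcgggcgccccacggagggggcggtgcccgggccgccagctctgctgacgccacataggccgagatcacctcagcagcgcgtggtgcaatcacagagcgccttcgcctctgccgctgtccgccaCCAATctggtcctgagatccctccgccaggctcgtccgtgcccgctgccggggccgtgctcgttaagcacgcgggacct
Lss promoter, chr10:76531355-76531654, plus strand: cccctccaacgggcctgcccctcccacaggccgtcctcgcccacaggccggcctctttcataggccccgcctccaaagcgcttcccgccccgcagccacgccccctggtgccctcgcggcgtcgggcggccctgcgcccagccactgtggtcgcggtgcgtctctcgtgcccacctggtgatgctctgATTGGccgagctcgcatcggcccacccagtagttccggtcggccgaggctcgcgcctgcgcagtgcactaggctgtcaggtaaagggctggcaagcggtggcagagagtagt
Msmo1 promoter, chr8:64733529-64733828, minus strand: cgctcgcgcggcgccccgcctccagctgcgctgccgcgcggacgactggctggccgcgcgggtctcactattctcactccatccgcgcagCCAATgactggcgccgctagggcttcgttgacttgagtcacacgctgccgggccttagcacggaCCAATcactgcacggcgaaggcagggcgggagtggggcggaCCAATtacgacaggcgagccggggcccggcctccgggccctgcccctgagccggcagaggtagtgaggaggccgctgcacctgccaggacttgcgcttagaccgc
Hsd17b7 promoter, chr1:169969156-169969455, minus strand: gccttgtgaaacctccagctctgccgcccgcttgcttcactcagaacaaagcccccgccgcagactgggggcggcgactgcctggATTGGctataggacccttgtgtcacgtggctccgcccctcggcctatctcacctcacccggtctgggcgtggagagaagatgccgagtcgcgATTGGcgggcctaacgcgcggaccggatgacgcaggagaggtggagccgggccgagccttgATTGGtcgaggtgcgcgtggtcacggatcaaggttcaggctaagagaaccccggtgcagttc

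In these windows CCAAT on either strand was found once in Cyp51, at −29 to −25 from the start, and once in Lss, at −62 to −58. Msmo1 and Hsd17b7 each held it 3 times. All 8 genes had it in at least 1 window, 8 of 10 windows in all, where 37.4% of 32851 mouse promoter windows of the same length had it. The GC box GGGCGG on either strand was in 9 of 10 windows and in all 8 genes, against 35.7% of all windows. The E-box CACGTG was in 2 windows, of Hsd17b7 and Dhcr7, against 7.15% of all. The strict sterol regulatory element core TCACNCCAC on either strand was in 0 of the 10 windows and in 1.24% of all. A looser form, TCACNNCA, was chosen after the sequences and values had been seen. It was found in 6 of 10 windows and 5 of 8 genes, against 13.8% of all windows. Cyp51 and Hsd17b7 both held it as TCACCTCA, at −88 to −81 and at −117 to −110 from the start, and 1 of the 2 matches in Msmo1 shares a base with a CCAAT. Letter matches describe these windows and say nothing of which factor was bound, and a missing match does not bear on sites elsewhere. Ebp, whose change did not pass the test with all arrays, held 2 CCAAT matches and 1 GC box, like the genes that did pass.

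**Figure D4:**
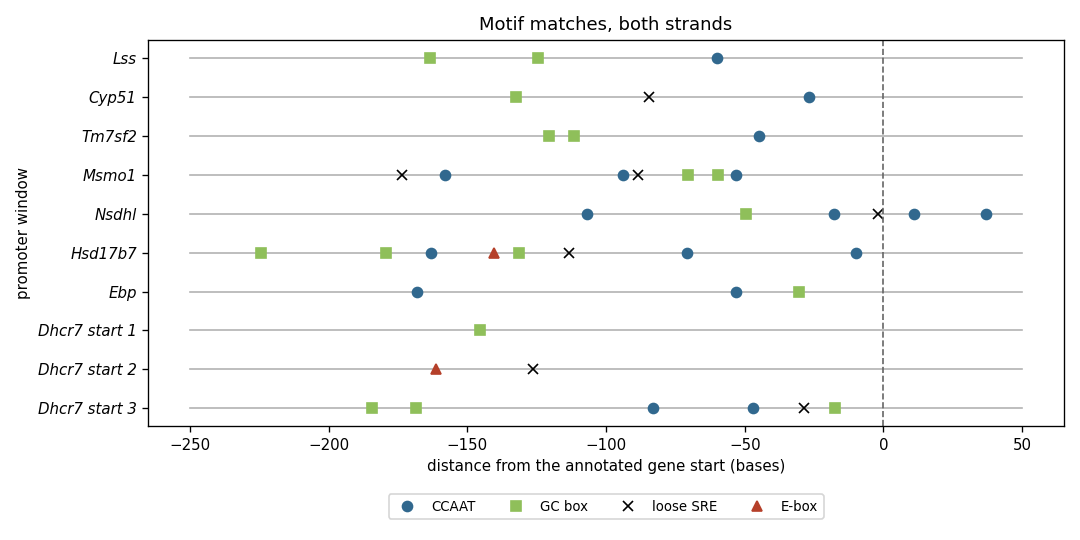
Position of each motif match on either strand, in bases from the annotated start, in the 10 promoter windows of 8 genes (1 line per window, 3 of them for Dhcr7). CCAAT (blue circles) is present in 8 windows and the GC box (green squares) in 9. Most matches lie before the start, as do 250 of the 300 bases of each window.

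The genes most like the 9 were sought among all other tested genes by the root mean square difference, over the 6 arrays, between each gene's log2 value minus its own wild type mean and the mean of that quantity over the 9 genes. That mean pattern stood at 3.23, 3.00 and 3.47 in transgenic replicates 1, 2 and 3, and at 0.16, −0.17 and 0.01 in wild type replicates 1, 2 and 3. The closest 5 were Twf2, an actin-binding twinfilin gene, at 0.192, Pgam2, a muscle phosphoglycerate mutase gene, at 0.221, Ppcs, an enzyme gene of coenzyme A synthesis, at 0.223, Camp, an antimicrobial peptide gene, at 0.232 and Hephl1, a ferroxidase gene, at 0.233. The 9 genes themselves lay at 0.170 (Dhcr7) to 0.857 (Ebp). Pgam2 and Camp had wild type means of 6.27 and 5.23, under the 16 added before the logarithm, so their likeness depends on that number.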

How the data were processed

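Total RNA of 6 fat pads, 1 per mouse and array, gave the deposited table of linear intensities, made with MAS5 according to the submitters' processing notes; version and scaling target were not found in the sources used here. There are 0 columns of other samples. Genes were named from the platform annotation. The log2 of signal + 16 was analysed with limma 3.58.1 (lmFit, eBayes with trend) in R 4.3.3, without further normalization, after removal of 64 control probe sets and of the 40% with the lowest mean, which left 27023; tables and figures were made in Python 3.11.15. The method was tested on simulated data, in which the noise of a probe set had the same spread on every array. In the real data transgenic replicate 2 stood apart, so the shares called need not hold for them. With 6 arrays it called 1.47% of planted log2 changes of size 1, 47% of size 2 and 83.3% of size 4. A gene that did not pass may therefore still have changed. The 3 arrays per group limit the precision. A gene's brightest tested probe set has the highest mean log2 value over all 6 arrays.

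The 9 genes, the gene lists and the choice to leave out transgenic replicate 2 were made with earlier results of these data known. Named with values were all probe sets of the 9 genes and the analysed genes of the 2 neighbouring pathway lists. Srebf1, Srebf2, Insig1 and the 5 most alike genes were named with values as well. Star, also given values, and the other genes named beside short counts were chosen after their values were seen. Alternatives were offsets of 1 and 64, no filter or 60%, quantile normalization, array medians, no trend, array weights, the replicate block, each array left out, and transgenic replicate 2 left out with quantile normalization.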

Additional observations from a re-analysis of the deposited data

How the results depend on the processing

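The count of sterol probe sets that rose ran from 8 to 14 over the alternatives and that of genes from 6 to 9, against 11 and 8. The count of all probe sets called was less steady. It was 802, and became 3359 with array weights, 4976 without transgenic replicate 2 after quantile normalization, 341 with the replicate number as a block, and 141 to 3565 with 1 array left out (lowest without wild type replicate 2, highest without transgenic replicate 2). The cause was not tested.

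No direction of the 9 genes changed in 144 comparisons of gene and alternative, of which 133 kept the side of the threshold, 7 lost the call (Nsdhl without each wild type array, and Hsd17b7 without each wild type array or transgenic replicate 3) and 4 gained it. The gains were all Ebp: with centring on array medians (adjusted p = 0.0377), array weights, and both fits without transgenic replicate 2.

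Same-numbered mice did not deviate together (correlations of their deviations −0.37, 0.09 and −0.05), so no pairing by number was seen. With 3 mice per group, and transgenic replicate 2 standing apart, these correlations cannot exclude a pairing. With the replicate block 11 sterol probe sets still rose. Signals near 16, such as those of the dim probe sets of Cyp51, Msmo1 and Hsd17b7, carry little information on fold change.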
